A study of Mus musculus with 24 samples.

Results

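The 106 genes described here are the protein-coding neighbours of Brca1 on mouse chromosome 11. They were chosen by position alone, as every protein-coding gene whose lower coordinate lies between 100.5 and 103.5 Mb on GRCm38 (mm10), without Brca1 itself. They are 106 of the 35519 genes counted, of which 21786 are protein-coding, and 47 lie on the lower-coordinate side of the Brca1 start and 59 on the other. RNA sequencing was done on 18 libraries of mouse prostate organoids and 6 of anterior prostate lobes. Organoids are epithelial cultures grown in Matrigel from single cells of collagenase-digested anterior lobes of 3-month-old mice, in a medium with EGF, Noggin, R-spondin, A83-01 and Y27632. They form 6 groups of 3 by Brca1 label (wild type, WT; Brca1+/-, HET; Brca1-/-, KO) and by medium with or without dihydrotestosterone (DHT), the androgen of the prostate. The tissue libraries form 3 groups of 2 with the same genotype labels. The labels do not say which part of Brca1 was deleted, by which Cre or promoter if any, or how many animals or organoid lines were used. The p-values therefore measure only the spread between these samples.

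BRCA1 is a tumour suppressor that acts in DNA repair by homologous recombination. Its gene stands head to head with Nbr1, an autophagy receptor gene, and the region around it holds genes of unrelated function, such as the Stat3, Stat5a and Stat5b cluster, both gamma-tubulin genes and the lysosomal gene Grn. Alleles around an engineered locus are inherited with it, and an engineered change can also alter transcription of neighbouring genes, so the genes beside a targeted locus are commonly examined.

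The promoter windows of 4 genes are shown, chosen after the values were seen, because those of Brca1 and Nbr1 overlap, Tmem106a had the call among the 6 nearest tested members, and Kif18b was called in 3 comparisons. Each runs from 250 bases before to 50 after a RefSeq start site on GRCm38.p6, 5′ to 3′ on the gene's strand. Capitals mark matches on either strand to CCAAT (the CCAAT box), TGACG (a cAMP response element core), GGGCGG (the GC box), TTTGAA (the core of a cell cycle homology region) or TATAAA (the TATA box).
Brca1 (chr11:101551906-101552205, minus strand): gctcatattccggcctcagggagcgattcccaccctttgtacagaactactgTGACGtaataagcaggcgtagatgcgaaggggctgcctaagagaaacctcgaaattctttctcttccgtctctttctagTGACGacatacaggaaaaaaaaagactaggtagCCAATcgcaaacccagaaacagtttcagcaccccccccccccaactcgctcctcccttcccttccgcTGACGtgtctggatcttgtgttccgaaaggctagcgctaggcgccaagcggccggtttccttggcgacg
Nbr1 (chr11:101551857-101552156, plus strand): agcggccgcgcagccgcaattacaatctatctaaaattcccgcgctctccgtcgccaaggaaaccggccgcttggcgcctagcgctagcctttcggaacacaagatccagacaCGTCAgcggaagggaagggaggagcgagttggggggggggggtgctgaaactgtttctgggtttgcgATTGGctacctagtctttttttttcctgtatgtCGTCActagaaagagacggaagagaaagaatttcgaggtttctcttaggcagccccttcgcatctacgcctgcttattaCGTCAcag
Tmem106a (chr11:101581992-101582291, plus strand): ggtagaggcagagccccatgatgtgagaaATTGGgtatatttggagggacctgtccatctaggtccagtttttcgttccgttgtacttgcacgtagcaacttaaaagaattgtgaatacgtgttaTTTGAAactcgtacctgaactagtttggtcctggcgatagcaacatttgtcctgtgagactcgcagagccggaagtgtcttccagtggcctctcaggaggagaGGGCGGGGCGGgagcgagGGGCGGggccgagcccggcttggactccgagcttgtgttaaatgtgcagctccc
Kif18b (chr11:102925075-102925374, minus strand): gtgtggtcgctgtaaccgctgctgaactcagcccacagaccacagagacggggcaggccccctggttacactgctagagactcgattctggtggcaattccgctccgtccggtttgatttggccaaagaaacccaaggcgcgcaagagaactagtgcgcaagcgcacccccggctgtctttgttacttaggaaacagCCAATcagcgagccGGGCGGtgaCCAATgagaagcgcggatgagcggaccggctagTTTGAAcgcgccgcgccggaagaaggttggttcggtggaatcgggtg
The Brca1 and Nbr1 windows share 251 bases, so both hold the same match to CCAAT and the same 3 to TGACG. The Tmem106a window holds 1 match to CCAAT, 3 to GGGCGG and 1 to TTTGAA, and the Kif18b window 2, 1 and 1. None of the 4 holds TATAAA. Of all 32851 windows, 37.41% hold CCAAT, 20.81% TGACG, 35.66% GGGCGG, 17.89% TTTGAA and 13.62% TATAAA. A match is a description of the letters and not a bound site.

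Library totals ranged from 11965815 to 58445041 estimated reads. Levels are counts-per-million (CPM) after scaling by the trimmed mean of M-values. A member is called where edgeR's quasi-likelihood p, adjusted by Benjamini-Hochberg over every gene of the fit, is under 0.05. The low-count filter left 80 members in the organoid fit and 90 in the tissue fit, and 16 passed in neither. The 10 members that passed in tissue alone were Hsd17b1, Ramp2, Aoc3, Meox1, Sost, Cd300lg, Gm11627, Adam11, Gjc1 and Higd1b. Ramp2, a receptor partner known from vessels, was singled out after its values were seen. Its median was 0.107 transcripts-per-million (TPM) in organoids and 9.21 in tissue. In organoids, summed TPM of 7 epithelial markers was 3965 to 5999 over the groups, and that of 5 endothelial markers 1.576 to 7.837. The sum of 7 prostate markers was 219.2 to 295.2 in organoids and 627.9 to 4.161e+04 in tissue. In bulk samples, fewer cells of a type and less RNA per cell cannot be told apart.

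Brca1 itself is given first, as the reference. With DHT its CPM was 13.62, 13.19 and 14.3 in the libraries labelled WT, 17.79, 14.74 and 18.04 in those labelled HET, and 11.78, 9.638 and 11.15 in those labelled KO. Without DHT the values were 13.24, 11.24 and 14.15 in WT, 20.24, 18.49 and 17.18 for HET and 13.09, 10.85 and 10.25 for KO. Brca1 reads thus remained in every KO library, and HET was above WT in both media. The KO to WT change was -0.34 ± 0.13 (log2 ± SE; edgeR adjusted p = 0.22) with DHT and -0.18 ± 0.13 (adjusted p = 0.596) without. Brca1 rose in HET over WT without DHT by 0.53 ± 0.13 (edgeR adjusted p = 0.0147), with 0.30 ± 0.13 (adjusted p = 0.211) with DHT. KO fell below HET by 0.71 ± 0.13 without DHT (edgeR adjusted p = 0.00542) and by 0.63 ± 0.13 with it (adjusted p = 0.0101). The higher level in HET goes against the order the labels would give if each lost allele lowered the whole-gene count. Summed TPM of 7 cycling markers over both media was 424.7 to 493.4 in HET, 240.4 to 300.4 in WT and 308.4 to 340.4 in KO. Its part in the Brca1 values was not tested. Because the deleted part is not given, the whole-gene count does not test the genotype labels, and HET and KO below mean the libraries so labelled.

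Few neighbours of Brca1 changed with genotype, and their share was near that of all genes tested. With DHT, 4 of 80 members (5%) were called between HET and WT, against 7.51% of all genes tested. Between KO and WT 1 member (1.25%) was called against 4.11%, and between KO and HET 1 (1.25%) against 3.54%. Without DHT, 6 members (7.5%) were called between HET and WT against 7.81%, 3 (3.75%) between KO and WT against 4.8%, and 0 between KO and HET against 2.92%. In that last comparison 8 members had an unadjusted edgeR p under 0.05 (10%), against 12% of all genes, and DESeq2 called 1. Each share of members was below that of all genes here, but the order was not stable: with a covariate for the share of mitochondrial reads, the 4 comparisons with WT called 18.8%, 11.2%, 17.5% and 15% of members against 17.7%, 8.95%, 14.8% and 10.7% of all genes. Without the 3 libraries with the fewest reads, HET against WT without DHT called 11.2% of members against 8.66%. Members whose libraries did not overlap between groups made up 28.7%, 21.2% and 26.2% with DHT (HET against WT, KO against WT, KO against HET) and 20%, 7.5% and 12.5% without. Over all genes those shares were 29.1%, 24.3% and 31.1%, and 20.3%, 17% and 12.1%. These comparisons share libraries within a medium and are not independent of each other.

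**Figure D1:**
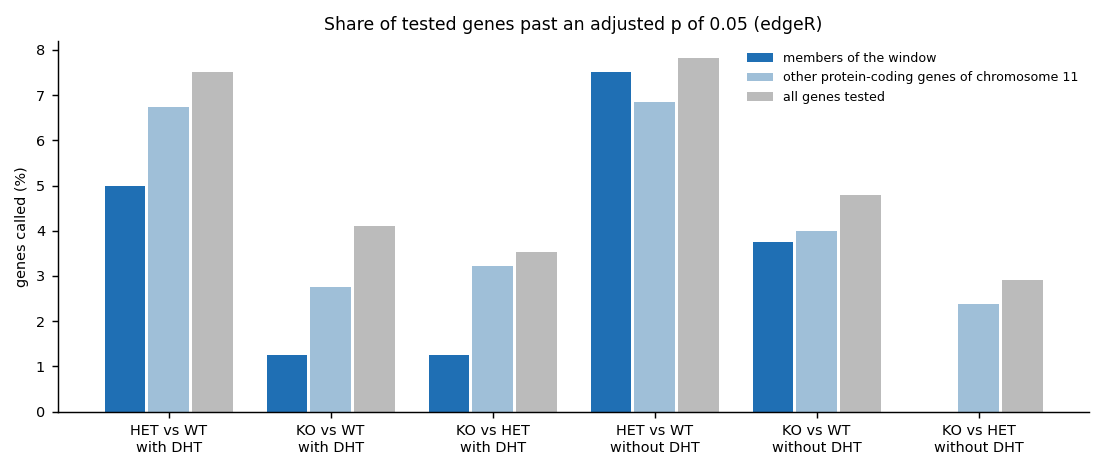
Percent of tested genes with an edgeR adjusted p under 0.05 (vertical axis) in the 6 organoid genotype comparisons (horizontal axis), for the 80 members, the other protein-coding genes of chromosome 11 and all 15427 genes tested. The member bar is below the all-gene bar in each comparison and is at 0 for KO against HET without DHT.

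The last of those counts depends on the fit. Same-numbered HET and KO libraries without DHT deviated from their group means together (correlations 0.617, 0.231 and 0.69), so their numbers were taken as pairs. The labels do not pair these libraries, so the pairs come from the same expression values that the paired fit tests. Mitochondrial reads also fell from replicate 1 to 3 in both groups (9.426%, 4.544% and 2.417% in HET, 10.01%, 4.173% and 2.614% in KO). The part of that share in the correlations was not tested. With the replicate number as a block in the fit of all organoids, 0 members were called, against 3.45% of all genes. With the block in a fit of these 2 groups alone, an alternative added after seeing the data, 10 of 79 members tested (12.7%) were called against 18.6% of all genes. They were Stat3, Cavin1, Cnp, Pyy, Tmem106a and Fzd2, higher in KO, and Atp6v0a1, Tubg1, Kif18b and Aarsd1, lower in KO.

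Over all distances, the size of the differences showed little rank relation to distance, while the 5 tested members closest to Brca1 had the largest median change in 3 of the 4 comparisons with WT and the smallest in the other. Over the 80 members, the Spearman correlation between absolute log2 change and absolute distance lay between -0.12 and 0.06 in the 6 organoid genotype comparisons, as a description over genes that share libraries. The median absolute log2 change of the 5 tested members within 100 kb was 0.33 in HET against WT with DHT, against 0.10 for the 28 at 100 to 500 kb, 0.12 for the 29 at 500 kb to 1 Mb and 0.21 for the 18 farther away. Without DHT those medians were 0.48, 0.15, 0.20 and 0.25 for HET against WT, and 0.33, 0.14, 0.21 and 0.14 for KO against WT. For KO against WT with DHT the order differed, at 0.06, 0.15, 0.13 and 0.13. With 5 genes in the nearest class and 18 in the farthest, these medians are descriptions that rest on few genes. The 5 tested members within 100 kb held 1 call in HET against WT without DHT and 1 in KO against WT in each medium, each 20% of 5 genes beside 7.81%, 4.11% (with DHT) and 4.8% (without) of all genes, and each time it was Tmem106a. Of the 9 members called in any genotype comparison, 3 lay within 500 kb (Tmem106a, Psmc3ip and Tubg2) and 6 farther away, which is 9.09% of the 33 tested within that distance and 12.8% of the 47 tested beyond it. The median absolute log2 change of members in HET against WT with DHT was 0.15, against 0.20 over all genes tested.

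**Figure D2:**
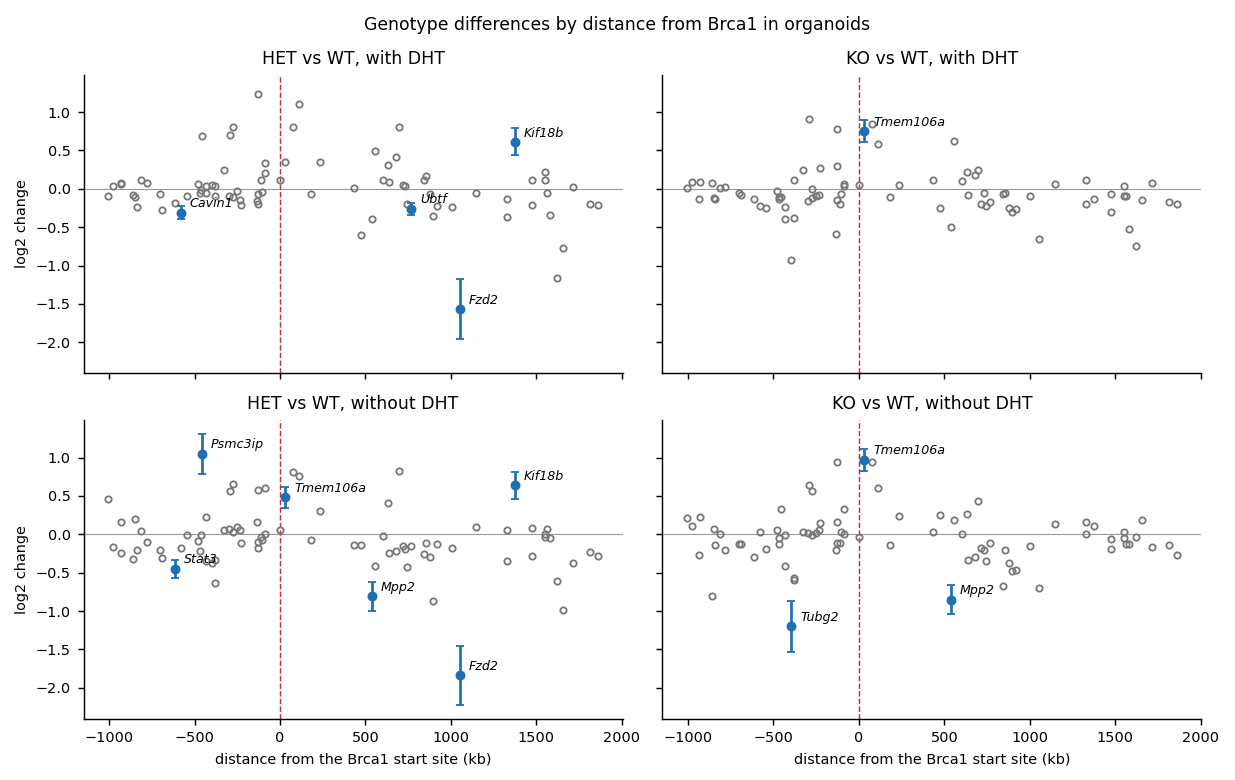
Log2 change of each tested member (vertical axis) against the distance of its start from the Brca1 start (horizontal axis, kb; dashed line at Brca1) in 4 organoid comparisons. Filled points with SE bars are members called by edgeR and open points are the others; called members lie on both sides of Brca1, from Psmc3ip and Stat3 on the left to Kif18b on the right.

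Closest to Brca1, Nbr1 starts 194 bases from it on the opposite strand (chromosome 11, 101552149 to 101581951), and its protein carries ubiquitinated cargo to autophagosomes. The 194 bases separate the annotated gene starts. The most abundant organoid transcripts of the 2 genes, Nbr1-206 and Brca1-201, start 979 bases apart. The Nbr1-206 start (101552858) lies outside the windows shown. The Brca1-201 start (101551879) lies outside the Brca1 window, though inside that of Nbr1. Nbr1 CPM with DHT was 247.6, 250.1 and 248.5 in WT, 260.7, 273.2 and 269.5 for HET and 254.1, 266.8 and 253.9 for KO. Without DHT it was 248.3, 229.8 and 252.3 in WT, 275.9, 245.8 and 240.5 for HET and 255.2, 235.7 and 220.2 for KO. HET and KO lay above WT without overlap with DHT, by 0.11 ± 0.08 and 0.05 ± 0.08 on the log2 scale, and overlapped WT without DHT. Nbr1 was called in none of the 6 comparisons by edgeR (Benjamini-Hochberg adjusted p from 0.552 to 0.915). Brca1, whose window shown above overlaps that of Nbr1, had a KO to HET log2 change of -0.63 ± 0.13 (edgeR adjusted p = 0.0101) with DHT. Nbr1 had -0.05 ± 0.08 there.

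Tmem106a, a transmembrane protein gene grouped here with the innate antiviral genes, starts 30.29 kb from Brca1 and 290 bases past the annotated end of Nbr1, on the same strand (chromosome 11, 101582242 to 101591788). With DHT its CPM was 7.202, 7.548 and 8.34 in WT, 11.02, 9.365 and 9.212 for HET and 13.02, 12.68 and 13.32 for KO. Without DHT it was 6.161, 7.402 and 5.635 in WT, 7.473, 9.13 and 10.17 for HET and 11.11, 12.56 and 14.01 for KO. In both media the order was WT, HET, KO, and no 2 groups of a medium overlapped. Tmem106a rose in KO against WT by 0.75 ± 0.14 with DHT and 0.97 ± 0.14 without (log2 ± SE; edgeR adjusted p = 0.0043 and 0.000418). Both calls were kept in all 9 alternative settings and in all 18 fits that left out 1 organoid library. In HET against WT the change was 0.35 ± 0.14 (edgeR adjusted p = 0.173) with DHT and a rise of 0.48 ± 0.14 (adjusted p = 0.0442) without. That last call was lost in 11 of 18 fits without 1 library (adjusted p from 0.0169 to 0.157) and under 4 of 9 alternatives. KO against HET was not called, at 0.40 (edgeR adjusted p = 0.155) and 0.49 (adjusted p = 0.0762). Only the paired fit above, whose pairs were taken from the expression values, called Tmem106a there without DHT. The difference between the KO to WT changes of the 2 media was 0.22 ± 0.20 (edgeR adjusted p = 1.00).

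Rdm1, whose product is a RAD52 motif protein, lies 75.24 kb from Brca1. Its CPM with DHT was 5.514, 8.852 and 8.106 in WT, 14.32, 15.41 and 10.35 for HET and 11.5, 13.83 and 15.98 for KO. Without DHT it was 6.862, 8.656 and 5.679 in WT, 6.566, 12.94 and 17.54 for HET and 7.062, 14.65 and 18.85 for KO. HET and KO were above WT without overlap with DHT, while without DHT the replicate 1 libraries of HET and KO lay within the WT range. The log2 changes against WT were 0.81, 0.85, 0.81 and 0.94 (HET and KO with DHT, then without), and none was called (edgeR adjusted p from 0.174 to 0.276). The HET and KO libraries without DHT took 9.426%, 4.544% and 2.417%, and 10.01%, 4.173% and 2.614%, of their reads from mitochondrial genes, highest in replicate 1 of each. With that share as a covariate in edgeR, Rdm1 was higher by 0.92, 1.12, 1.07 and 1.22, with adjusted p of at most 6.6e-05. The part of the mitochondrial share in the Rdm1 values was not tested further.

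On the other side, Vat1, a vesicle amine transport gene, Rnd2 and the interferon-induced Ifi35 lie 85.72, 86.96 and 103.5 kb from Brca1. Vat1 ranged from 101 to 192.8 CPM and Ifi35 from 15.31 to 28.41 over the 18 organoid libraries, with changes against WT between -0.08 and 0.21. Rnd2 without DHT was 3.818, 5.4 and 4.4 CPM in WT and 7.981, 5.273 and 7.394 in HET, which overlap by 1 library (log2 0.60 ± 0.20, edgeR adjusted p = 0.0944). No comparison called any of the 3.

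**Figure D3:**
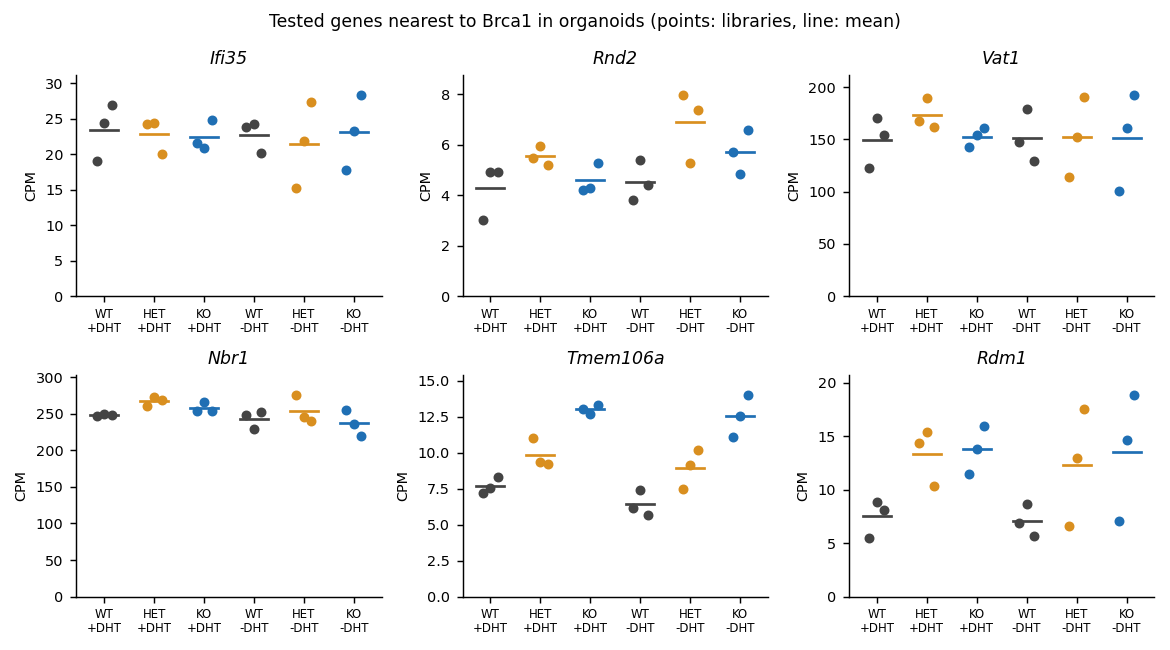
CPM (vertical axes, from 0) of the 3 tested members nearest to Brca1 on each side, by group of organoids (horizontal axes); points are the 3 libraries and lines the group means. Tmem106a steps up from WT through HET to KO in both media, Rdm1 is spread without DHT, and Nbr1 stays between 220.2 and 275.9.

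Among the signalling genes, Stat3, a transcription factor of cytokine signalling, lies 612.4 kb from Brca1. Its CPM without DHT was 159.2, 164.6 and 142.1 in WT, 97.84, 112.5 and 131.3 for HET and 107.4, 130.3 and 143.2 for KO. All HET libraries were below all WT libraries, and KO overlapped WT. Stat3 fell in HET by 0.45 ± 0.11 on the log2 scale (edgeR adjusted p = 0.0229), a call lost without replicate 1 or 2 of either group (adjusted p up to 0.107 over single-library removals). With DHT the change was -0.19 ± 0.11 (edgeR adjusted p = 0.42). Stat3 overlaps Stat5a in the annotation, and Stat5a and Stat5b are near-identical copies, so how reads were split among them is uncertain.

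The Wnt receptor gene Fzd2 is 1052 kb away. With DHT its CPM was 3.151, 5.521 and 5.106 in WT, 1.849, 1.659 and 1.24 for HET and 4.327, 2.142 and 2.465 for KO. Without DHT it was 5.829, 8.939 and 6.22 in WT, 1.052, 1.487 and 3.187 for HET and 3.221, 3.714 and 5.887 for KO. HET was the lowest group in both media, with no overlap with WT. Fzd2 fell in HET by 1.57 ± 0.39 (edgeR adjusted p = 0.0217) with DHT and by 1.84 ± 0.38 (adjusted p = 0.00626) without, on the log2 scale. The first call was lost without HET replicate 1, 2 or 3 or WT replicate 2 or 3 (adjusted p up to 0.0993), and the second in none of 18 such fits. Of 9 alternative settings, all kept the first and 8 the second, which was lost with the compared groups fitted alone. Cavin1, which coats caveolae, was 198.3, 187.2 and 198.7 CPM in WT and 156.1, 148.7 and 167.2 in HET with DHT. It fell without overlap by 0.31 ± 0.08 on the log2 scale (edgeR adjusted p = 0.0291), and without HET replicate 1 or 2 or any WT library the call was lost (adjusted p up to 0.124). Summed TPM of 6 fibroblast markers was also lowest in HET, with at most 1 marker at 0 in a group. It was 6.113 to 10.34 in HET over both media, against 18.59 to 27.37 in WT and 16.48 to 32.68 in KO. Most of it was Dcn, at 8.051 of 8.86 in HET replicate 1 and 29.21 of 29.48 in KO replicate 1 with DHT. In KO with DHT the sum was 24.48 to 32.68, above the 18.59 to 21.42 of WT. Mean Fzd2 and Cavin1 were there lower than in WT (2.978 against 4.593 and 167.7 against 194.7 CPM). The part of this sum in the Fzd2 and Cavin1 values was not tested.

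The 9 tested members grouped here under cell division and microtubules are a broad list, not limited to genes of mitosis. Among them, Kif18b, a kinesin of mitotic microtubules, rose in HET. Its CPM with DHT was 14.07, 15.58 and 13.34 in WT, 21.97, 22.23 and 21.27 for HET and 13.15, 12.87 and 13.26 for KO. Without DHT it was 13.67, 15.17 and 12.4 in WT, 16.47, 19.47 and 28.33 for HET and 11.44, 15.77 and 17.23 for KO. HET stood above both other groups with DHT and above WT without. The rise over WT was 0.61 ± 0.18 (edgeR adjusted p = 0.0475) with DHT and 0.64 ± 0.17 (adjusted p = 0.0308) without, and KO fell below HET by 0.74 ± 0.17 (adjusted p = 0.0269) with DHT. Leaving out 1 library ended these calls in 14, 4 and 6 of 18 fits (highest adjusted p 0.163, 0.116 and 0.102). The 4 were any WT library and HET replicate 3 without DHT, and the 6 were the libraries compared.

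Psmc3ip, a partner of the meiotic recombinases, had CPM without DHT of 1.31, 1.153 and 1.539 in WT, 3.773, 2.068 and 2.502 for HET and 1.817, 1.69 and 1.521 for KO. HET was above every other library of that medium. It rose by 1.05 ± 0.26 over WT on the log2 scale (edgeR adjusted p = 0.0195), a call lost without HET replicate 1 or WT replicate 1 or 2 (adjusted p up to 0.102). Psmc3ip overlaps Mlx in the annotation, and strand use in the counting is not given. Summed TPM of 7 cycling markers was 424.7 to 493.4 in HET, 240.4 to 300.4 in WT and 308.4 to 340.4 in KO over both media. HET was the highest group for these markers, for Kif18b and for Psmc3ip, and the part of cycling cells in the 2 genes was not tested.

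Tubg2, the less abundant gamma-tubulin gene, was 2.066, 1.537 and 1.279 CPM in WT and 0.7021, 0.7511 and 0.6717 in KO without DHT. Tubg2 fell without overlap by 1.20 ± 0.33 on the log2 scale (edgeR adjusted p = 0.0489), but 15 of 18 single-library removals ended the call (adjusted p up to 0.237). Only 3 of 9 alternative settings kept it. The paralog Tubg1 ranged from 18.75 to 33.18 CPM, and reads shared by the copies make both uncertain.

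Mpp2, a membrane scaffold gene grouped here with the nervous system genes, fell in both genotypes without DHT. Its CPM there was 31.4, 37.29 and 26.51 in WT, 15.89, 17.05 and 21.18 for HET and 12.35, 18.17 and 21.97 for KO. All HET and KO libraries were below all WT libraries. The changes were -0.81 ± 0.18 and -0.85 ± 0.18 (edgeR adjusted p = 0.0108 and 0.0124). The HET call was lost without HET replicate 1 or 2 or WT replicate 2, and the KO call without WT replicate 2 (adjusted p up to 0.0666 and 0.0722). Both calls were also lost with the compared groups fitted alone, and the KO call with length offsets. Summed TPM of 4 nerve and glia markers without DHT was 5.245 to 6.16 in WT, 1.008 to 1.711 in HET and 3.76 to 4.317 in KO, with 1 marker at 0 in each group, and with DHT it was 2.332 to 2.536, 0.7885 to 1.206 and 3.216 to 3.75 in that order. Its part in the Mpp2 values was not tested. With DHT, where HET and KO were also below WT without overlap, the Mpp2 changes were -0.40 (edgeR adjusted p = 0.252) and -0.50 (adjusted p = 0.2).

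Ubtf, the ribosomal RNA gene transcription factor, was 67.97, 64.04 and 64.51 CPM in WT and 54.5, 56.99 and 52.04 in HET with DHT. It fell without overlap by 0.26 ± 0.08 on the log2 scale (edgeR adjusted p = 0.0472), a call lost in 14 of 18 fits without 1 library, each HET and WT library with DHT among them (adjusted p up to 0.188). Of 9 alternative settings, 4 kept the call. Ubtf was the 1 called of 12 tested chromatin and transcription members in that comparison, where 7.51% of all genes tested were called.

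**Figure D4:**
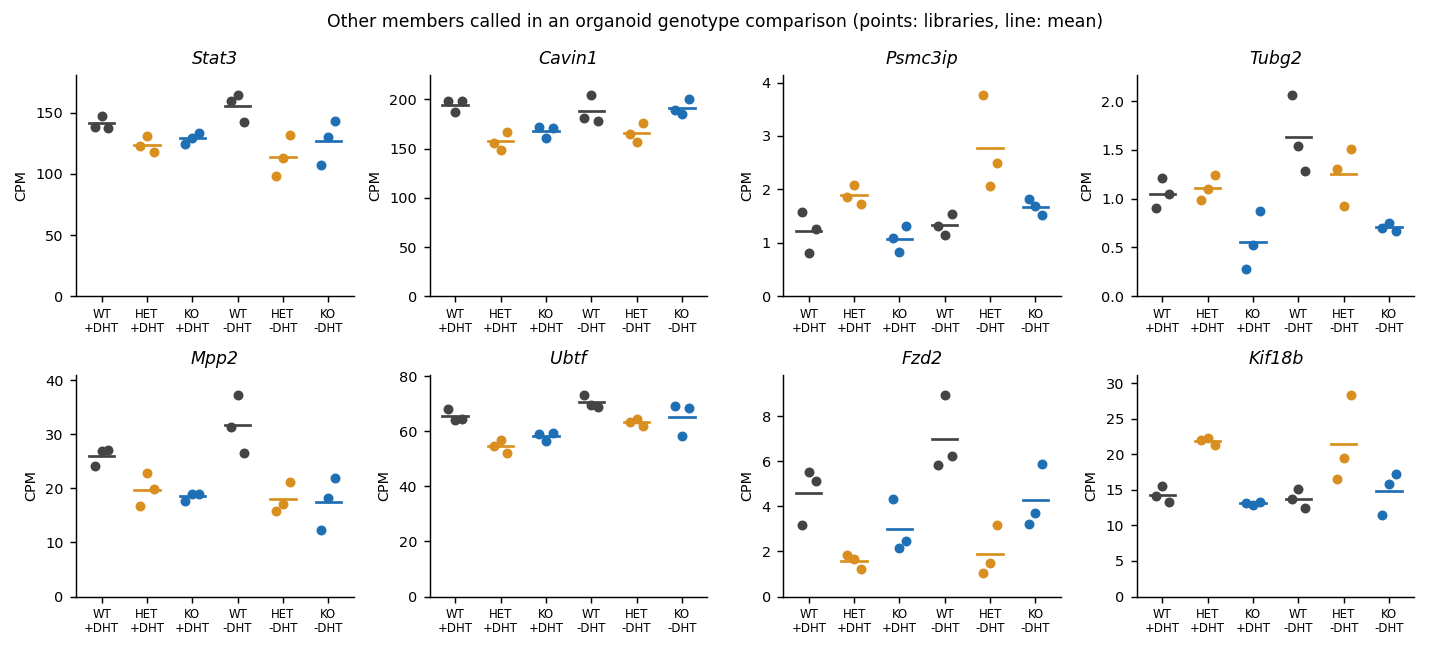
CPM (vertical axes, from 0) by organoid group (horizontal axes) of the 8 members other than Tmem106a that were called in a genotype comparison; points are the 3 libraries and lines the means. HET is lowest for Fzd2 and highest for Kif18b and Psmc3ip in both media, and both HET and KO are below WT for Mpp2.

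The remaining role groups held no call. They were the 11 lysosome, autophagy and endosome members, 8 tested metabolism members, 7 splicing and ribosome members, 6 tested chaperone and protein fate members, 2 tested cilia members and 4 tested members with no role assigned. The most abundant member of each of the first 5 groups, by median TPM in organoids, was Grn, the lysosomal progranulin (112), Slc25a39, a mitochondrial carrier (89.2), Rpl27, a ribosomal protein (477.9), Dnajc7, a chaperone partner (87.9), and Ttc25, a cilia gene (0.963). Processed copies of Rpl27 make its count uncertain. Grn changed by -0.25 in KO against WT with DHT and -0.38 without (edgeR adjusted p = 0.673 and 0.311).

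DHT withdrawal called no member in any genotype, against 1.3% of all genes in WT, 0.707% in HET and 0.557% in KO. At an unadjusted edgeR p under 0.05 the members were 4, 6 and 7 of 80, against 8.07%, 8.39% and 7.03% of all genes, and DESeq2 called 2 in HET. Arl4d, a small GTPase gene 113.6 kb from Brca1 and singled out after its values were seen, was lower without DHT in each genotype with no overlap. Its CPM in HET was 8.846, 14.82 and 10.57 with DHT and 2.648, 4.855 and 4.876 without. The log2 changes were -1.11, -1.46 and -1.09 in WT, HET and KO (edgeR adjusted p = 0.211, 0.0751 and 0.278), and the replicate block brought them to adjusted p = 0.027, 0.00243 and 0.0169. The labels do not pair these libraries. Deviations of same-numbered libraries with and without DHT correlated from -0.363 to 0.297, so this block rests on shared numbers only. Retreg3, an endoplasmic reticulum turnover gene chosen in the same way, had changes of -0.43, -0.72 and -0.60 (edgeR adjusted p = 0.564, 0.136 and 0.31). The differences between withdrawal responses of genotypes called 0 members by edgeR against 0% of all genes. At an unadjusted p under 0.05 they were also 0, against 2.81%, 2.7% and 0.979% of all genes (HET against WT, KO against WT, KO against HET).

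In anterior prostate tissue no member was called in any genotype comparison, and 0% of all 16753 genes tested were called by edgeR in each. At an unadjusted edgeR p under 0.05, 5 of 90 members (5.56%) passed between HET and WT, 3 (3.33%) between KO and WT and 0 between KO and HET. Over all genes those shares were 2.73%, 1.92% and 0.579%, so the member share was higher in both comparisons with WT. DESeq2 called 1 member, Wnk4, between HET and WT. Summed TPM of 8 seminal vesicle markers was 1.782e+05 in WT replicate 2 and 6.288e+04 in HET replicate 1, against 5.155 to 24.82 in the other 4 libraries, so these 2 stood apart. Without both of them WT and HET hold 1 library each, which are assumed to vary like the KO pair, with 0 members called against 0.157%, 0.476% and 0.348% of all genes (HET against WT, KO against WT, KO against HET).

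Wnk4, a kinase that regulates salt transport in kidney, starts 291.4 kb from Brca1 and was singled out after its values were seen. Its tissue CPM was 11.46 and 10.61 in WT, 31.4 and 26.86 for HET and 23.3 and 28.53 for KO. The WT pair was the lowest, with no overlap. The changes were 1.40 ± 0.29 in HET and 1.23 ± 0.29 in KO (edgeR adjusted p = 0.997 and 1; DESeq2 adjusted p = 0.0259 in HET). In organoids with DHT Wnk4 was 2.926, 3.821 and 3.532 CPM in WT, 4.961, 6.127 and 5.834 for HET, then 6.718, 6.568 and 6.365 for KO. These groups did not overlap either, with changes of 0.70 and 0.91 against WT (edgeR adjusted p = 0.155 and 0.0751). Without DHT Wnk4 was 4.187, 6.755 and 3.533 in WT, 5.369, 6.806 and 9.035 for HET, then 4.873, 7.886 and 9.7 for KO. There HET and KO overlapped WT, with changes of 0.56 and 0.64 (edgeR adjusted p = 0.261 and 0.232).

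Tmem106a in tissue was 15.05 and 5.345 CPM in WT, 19.16 and 19.87 for HET and 17.86 and 16.41 for KO. Both WT libraries were below the other 4, with the lower value in the replicate with the seminal vesicle markers, and the changes were 0.93 ± 0.51 and 0.75 ± 0.51 (edgeR adjusted p = 0.997 and 1). Ifi35 was 33.74 and 14.25 in WT, 37.63 and 59.15 for HET and 63.06 and 54.09 for KO, again with WT lowest (log2 1.01 and 1.29, edgeR adjusted p = 0.997 and 1). Libraries of HET and WT did not overlap for 31 of 90 members (34.4%), against 24.2% of all genes tested, and for KO and WT for 31 (34.4%) against 31.3%. For KO and HET the order was opposite, with 15 members (16.7%) against 21.8%. With 2 libraries a group these counts are descriptions. Over the 90 members the Spearman correlation of absolute change with absolute distance was 0.04, 0.04 and -0.06.

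**Figure D5:**
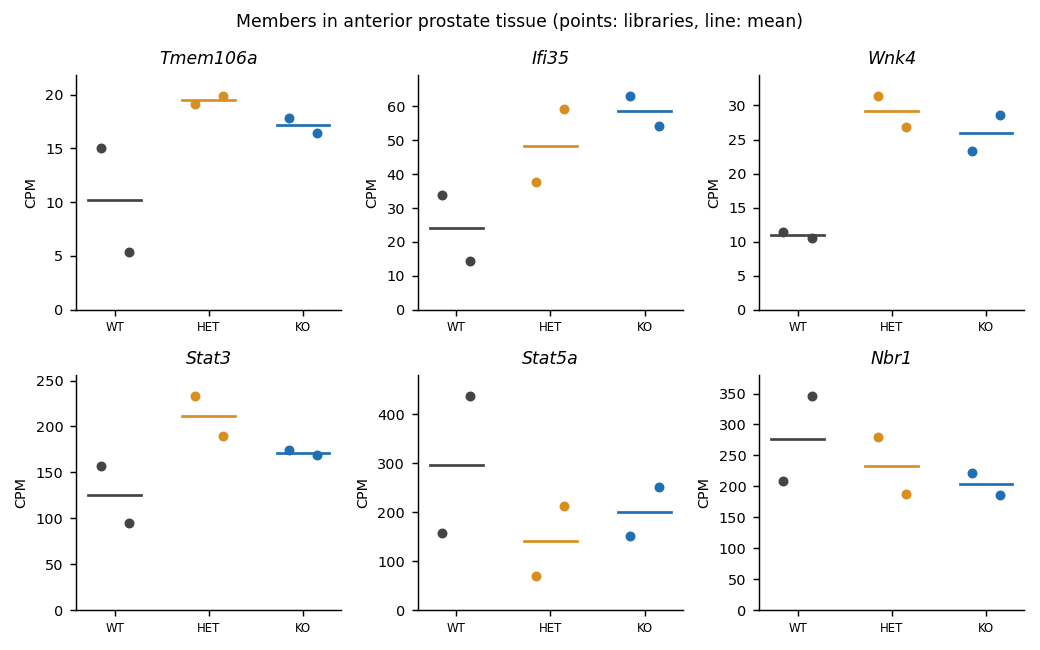
CPM (vertical axes, from 0) of 6 members in the 6 anterior prostate libraries by genotype label (horizontal axes); points are the 2 libraries and lines the means. WT is lowest for Tmem106a, Ifi35, Wnk4 and Stat3, and the WT pair is spread for Tmem106a, Stat5a and Nbr1.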

How the data were processed

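Transcript tables of 24 RNA-seq libraries were used. Per the file headers they hold estimated counts of reads, TPM and effective lengths. The submitters' processing notes name Salmon 0.13.1 as the tool with which the authors estimated counts and TPM, and the deposited effective length is in bases. The notes name hg38, whereas the transcript identifiers are mouse Ensembl; the index annotation and strandedness are not given in the sources used here. Estimated counts were summed per gene with GENCODE M21 (GRCm38) and rounded; 922 transcripts per library had no gene there and were left out. Promoter windows came from RefSeq, GRCm38.p6 (72 of 106 members matched).

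The 18 organoid and 6 tissue libraries were fitted separately in edgeR 4.0.16 (R 4.3.3) with filterByExpr, TMM scaling and 1 mean per group, on 15427 and 16753 genes, with 12 and 3 residual degrees of freedom and a biological coefficient of variation of 0.214 and 0.502. SE is the log2 change divided by the square root of F. The tests were checked on simulated counts. The members, role lists and tests were chosen with earlier results of these data known. Members named are the 3 tested nearest Brca1 on each side, every called member, and the most abundant member of each role group without a call. Other members singled out are said to be chosen after their values were seen.

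Alternatives were DESeq2 1.42.0, its size factors, no filter, a filter at 1 CPM, length offsets, the replicate number as a block, the mitochondrial share as covariate, the compared groups alone, start-site choice of members, and leaving out each library. Added after seeing the data were a fit without the 3 libraries with the fewest reads, the paired fit of KO and HET without DHT, and a crossed block in tissue. Deviations of same-numbered libraries all correlated above 0.1 with 3 pairs only for KO against HET without DHT (0.617, 0.231 and 0.69).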

Additional observations from a re-analysis of the deposited data

Results flagged for a closer look

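For 9 members the libraries of 2 genotype labels overlapped neither in organoids nor in tissue and lay in opposite directions in the 2 materials, over 19 pairs of comparisons. They are 11.2% of the 80 members tested in both materials, and 13.4% of all 14659 genes tested in both met the same condition in at least 1 pair. In single pairs the order of the shares varied. With DHT they were 7.5% of members against 5.31% of genes (HET and WT), 3.75% against 4.99% (KO and WT) and 5% against 3.43% (KO and HET). Without DHT they were 3.75% against 2.79%, 0% against 2.5% and 3.75% against 1.45%. The difference between materials was not tested, tissue groups hold 2 libraries each, none of the tissue values was called by edgeR, and organoid comparisons of a medium share libraries. Values below are log2 changes in organoids and then in tissue.

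For HET against WT with DHT, Kat2a (a histone acetyltransferase) had -0.24 and 0.33, Stat3 -0.19 and 0.75, Psmc3ip 0.69 and -0.60, Cntd1 0.81 and -1.18, Etv4 (an ETS transcription factor) 0.35 and -1.45, and Fmnl1 (a formin) -1.16 and 1.23. Without DHT, Stat3 had -0.45 and 0.75, Psmc3ip 1.05 and -0.60, and Cntd1 0.65 and -1.18. For KO against WT with DHT, Stat3 had -0.13 and 0.45, Tubg1 -0.40 and 0.40, and Fmnl1 -0.75 and 0.48.

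For KO against HET with DHT, Psmc3ip had -0.80 and 0.72, Cntd1 -0.81 and 0.93, Tmem106a 0.40 and -0.19, and Ccdc103 (a cilia gene) 0.50 and -0.57. Without DHT, Psmc3ip had -0.73 and 0.72, Tmem106a 0.49 and -0.19, and Ccdc103 0.51 and -0.57. Kat2a, Cntd1, Etv4, Fmnl1, Tubg1 and Ccdc103 are named here because of these values.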

How the results depend on the processing

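Counts of called members are given in the order HET against WT, KO against WT and KO against HET with DHT, then the same without DHT, beside the main counts of 4, 1, 1, 6, 3 and 0. With the mitochondrial share as covariate they were 15, 9, 6, 14, 12 and 4, against 17.7%, 8.95%, 10.3%, 14.8%, 10.7% and 8.58% of all genes, so that the member share stood above the all-gene share in the 4 comparisons with WT. With DESeq2 they were 7, 4, 3, 8, 3 and 1, against 10.6%, 6.42%, 6.41%, 10.9%, 7.56% and 5.19% of all genes. With the compared groups alone they were 4, 6, 3, 0, 1 and 0, against 7.8%, 6.22%, 8.57%, 2.73%, 1.38% and 0.185%. With length offsets they were 1, 1, 1, 4, 1 and 0, against 5.87%, 3.18%, 2.41%, 6%, 3.53% and 1.77%, and with no filter 1, 1, 1, 4, 2 and 0, against 3.54%, 2.14%, 1.71%, 3.93%, 2.15% and 1.3%. The replicate block gave 5, 2, 1, 6, 2 and 0, against 8.64%, 4.56%, 4.25%, 8.89%, 5.45% and 3.45%, and in the paired fit of KO and HET without DHT 10 members were called against 18.6%. Without the 3 libraries with the fewest reads, KO against WT had 2 with DHT against 6% and 5 without against 5.66%. Leaving out 1 library gave 0 to 5, 1 to 2, 0 to 1, 2 to 7, 1 to 3 and 0 to 1.

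For DHT withdrawal in WT, HET and KO the main count was 0. The covariate gave 7, 2 and 5, against 4.66%, 1.9% and 3.01% of all genes, the replicate block 1, 2 and 1, against 1.55%, 1.08% and 0.758%, and DESeq2 2 in HET against 2.01%. Without the fewest-read libraries it was 2 in WT against 2.13% and 1 in HET against 0.687%, and leaving out 1 library gave 0 to 2 in HET. In tissue DESeq2 called 1 member between HET and WT, against 0.0597%, and the crossed block called 0. Replicate numbers are shared labels only, and for KO and HET without DHT the pairs were taken from the expression values. None of the 15 named calls reversed under any alternative, but many were lost in some. Of 9 alternative settings, Tubg2 kept its call in 3, Ubtf in 4, Cavin1 in 5, and Psmc3ip and Stat3 in 7 each. Fzd2 kept its calls in 9 with DHT and 8 without, and Mpp2 in 8 for HET and 7 for KO. Kif18b kept its calls over WT in 7 with DHT and 6 without, and its call between KO and HET in 9. A biological coefficient of variation of 0.502 limits what the tissue comparisons can show, and the cause of the changes in count was not tested.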
